A study of Mus musculus with 12 samples.

Results

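Cytochrome P450 enzymes carry the symbol Cyp followed by a family number, and they were measured here in lung tumour tissue. Of the 19937 genes measured by a probe set that names 1 gene, 87 bore such a symbol. Cyp1a1, Cyp1b1 and Cyp2f2 were kept apart, which left 84 genes, each with 1 probe set. A further 9 P450 genes (Cyp2a4, Cyp2a5, Cyp2c40, Cyp2c69, Cyp3a41a, Cyp3a41b, Cyp3a59, Cyp4a32 and Cyp4v3) shared their probe sets with other genes and were not analysed here. Of the 84, 32 reached a log2 value of 6 in at least 3 arrays and are called bright below. The other 52 are called dim: their values lay between 3.3 and 6.18. No measure of background was used, so where signal ends and background begins is not known here. The level of 6 is a convention, and Cyp2d26 reached it in 3 arrays, all of wild type smoke, Cyp2w1 in 4, Cyp2b23 in 5 and Cyp3a13 in 6, whereas Cyp21a1, Cyp2b9 and Cyp2ab1 reached it in 2 and Cyp17a1 and Cyp4a12b in 1.

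The study compared Lewis lung carcinoma, a transplantable mouse lung tumour, grown in the lungs of female C57BL/6 mice, by host genotype and by exposure. There were 4 groups of 3 arrays: wild type hosts in air, wild type hosts in smoke, RelA/p65 deficient hosts in air and RelA/p65 deficient hosts in smoke. RelA, also called p65, is part of NF-kB, a factor that switches on inflammatory genes, and the series title speaks of myeloid cells. The promoter that drives the deletion, the age of the mice, the length of exposure and whether each array stands for its own animal are not given in the sources used here, so p-values measure the spread between these arrays, which may be technical. The RNA came from resected tissue, in which fewer cells of a type and less RNA per cell cannot be told apart. All arrays had medians between 7.26 and 7.51, and arrays of a group correlated at 0.990 to 0.998 over all genes.

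The level of Rela itself is given beside the label of deficiency. Wild type arrays had a log2 level of 9.22 ± 0.056 (SD, n = 3) under air and 9.08 ± 0.10 under smoke, and deficient-labelled arrays 9.42 ± 0.035 and 9.31 ± 0.048. It was thus 0.20 ± 0.066 (SE) higher in the deficient group in air (limma, adjusted p = 0.0285) and 0.23 ± 0.066 higher in smoke (adjusted p = 0.00873). Where the probes lie relative to the deleted part is not given, so the arrays are called deficient-labelled here. Cyp1a1, which tobacco smoke is known to induce through the aryl hydrocarbon receptor, was 4.39-fold lower in smoke in wild type hosts (adjusted p = 2.19e-09) and 33.7-fold higher in smoke in deficient-labelled hosts (adjusted p = 6.6e-12). The arrays labelled wild type smoke therefore carried the lowest Cyp1a1 values of the series, at 5.52, 5.67 and 5.77. Cyp1a1 thus went with the smoke label in deficient-labelled hosts and against it in wild type hosts. Cyp1b1 was 5.12-fold higher in smoke in deficient-labelled hosts (limma, adjusted p = 3.4e-08). In wild type hosts it was 1.13-fold lower and did not pass (adjusted p = 0.201). Whether labels were exchanged cannot be settled from these values. Every smoke and genotype difference below is between arrays as labelled and would change in meaning if they were.

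P450 enzymes are membrane-bound haem proteins that insert an oxygen atom into lipophilic molecules, using electrons from partner reductases. Families numbered from 1 to 3 mostly act on drugs, pollutants and other foreign compounds, members of family 4 and the Cyp2j genes oxidise fatty acids and eicosanoids, and the remaining families make or break down cholesterol, bile acids, steroid hormones, retinoic acid and vitamin D. In the lung, airway club cells and alveolar type II cells are known as the main sites of foreign-compound P450s. By role the 84 genes comprised 42 of the foreign-compound group, 24 of the fatty acid and eicosanoid group, 6 of oxysterol and bile acid metabolism, 5 of steroid hormone synthesis, 3 of retinoic acid breakdown, 2 of vitamin D metabolism, Cyp51 of cholesterol synthesis and Cyp20a1, whose substrate is unknown.

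In wild type hosts, Cyp2b10, Cyp4b1 and Cyp2s1 fell most in smoke among the 84 genes, by 11.1-fold, 11.4-fold and 5.39-fold, and Cyp2e1 fell by 2.02-fold as fitted. Cyp2f2, kept apart, fell by 40.8-fold in the same comparison. In all, 16 of the 84 genes were lower in smoke and 9 were higher at an adjusted p under 0.05, beside 14.0% and 15.0% of all genes tested. Among these, 4 were at least 2-fold lower, beside 3.24% of all genes, and 0 were at least 2-fold higher, beside 0.341%. The shares of the 84 genes (19.0% lower and 10.7% higher) were near those of all genes, so the count over all 84 is no result about the family. It pools bright and dim genes: 15 of the 32 bright genes were lower and 5 higher, and 1 of the 52 dim genes was lower and 4 higher. Of all 4930 dim genes 0.730% were lower and 14.5% higher, and the share over all bright genes is not given here. The median difference was 0.10 over the 84 genes and 0.082 over all genes. The split depended on the scaling: with each array centred on its median, 14 genes were lower and 26 higher. This centring also moved the median of all genes, from 0.082 to 0.17. The shares of all genes called under other scalings are not given here, so rescaled counts say nothing particular to the P450 genes. The number of higher genes also rested on 1 array, since it was 20 without wild type smoke replicate 1, and it was 6 without wild type air replicate 3 or wild type smoke replicate 3.

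In deficient-labelled hosts, only 4 of the 84 genes differed between smoke and air. Cyp26b1 and Cyp4f39 were higher in smoke, beside 0.692% of all genes, and Cyp4f18 and Cyp2r1 were lower, beside 1.72%. Each of these 4 calls ended when at least 1 of several arrays was left out, and none remained without deficient-labelled air replicate 2, where 0 of the 84 genes passed in limma. The median difference was -0.0046 over the 84 genes and -0.0034 over all genes.

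Between genotypes in air, Cyp4f18, Cyp2j6, Cyp7b1, Cyp2b10 and Cyp2s1 were each at least 2-fold higher in the deficient-labelled arrays, and Cyp51 and Cyp2u1 were lower. The test called 19 of the 84 genes higher and 5 lower, beside 20.5% and 18.0% of all genes, and 5 at least 2-fold higher, beside 3.36%. With arrays centred on their median the split was 17 higher and 11 lower, and the median of all genes moved from -0.03 to -0.11. Between genotypes in smoke, 11 genes were at least 2-fold higher in the deficient-labelled arrays, beside 7.41% of all genes, led by Cyp2b10 at 28.3-fold and Cyp4b1 at 21.8-fold. There 19 genes were higher and 23 lower, beside 22.7% and 37.0% of all genes. The split moved to 20 higher and 15 lower with quantile normalization and to 17 higher and 50 lower with median centring, and 11 were lower without deficient-labelled smoke replicate 2. The median of all genes moved from -0.14 to -0.1 with quantile normalization and to -0.28 with median centring.

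The interaction, which is the smoke difference in deficient-labelled hosts minus that in wild type hosts, passed for 12 genes upward and 7 downward, beside 8.89% and 5.70% of all genes. It reached a size of at least 2-fold upward for Cyp2b10, Cyp4b1, Cyp2s1 and Cyp2e1, which is 4 genes, beside 3.00% of all genes. With median centring the interaction counts were 12 and 11, and with quantile normalization 14 and 5. The median interaction over all genes was then -0.14 and -0.054, against -0.077 as deposited. Leaving out wild type smoke replicate 1 gave 15 downward, and leaving out wild type smoke replicate 2 or deficient-labelled air replicate 1 gave 3. The comparisons share arrays with each other, the wild type smoke arrays entering the smoke, genotype and interaction contrasts, so their values are given side by side.

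**Figure D1:**
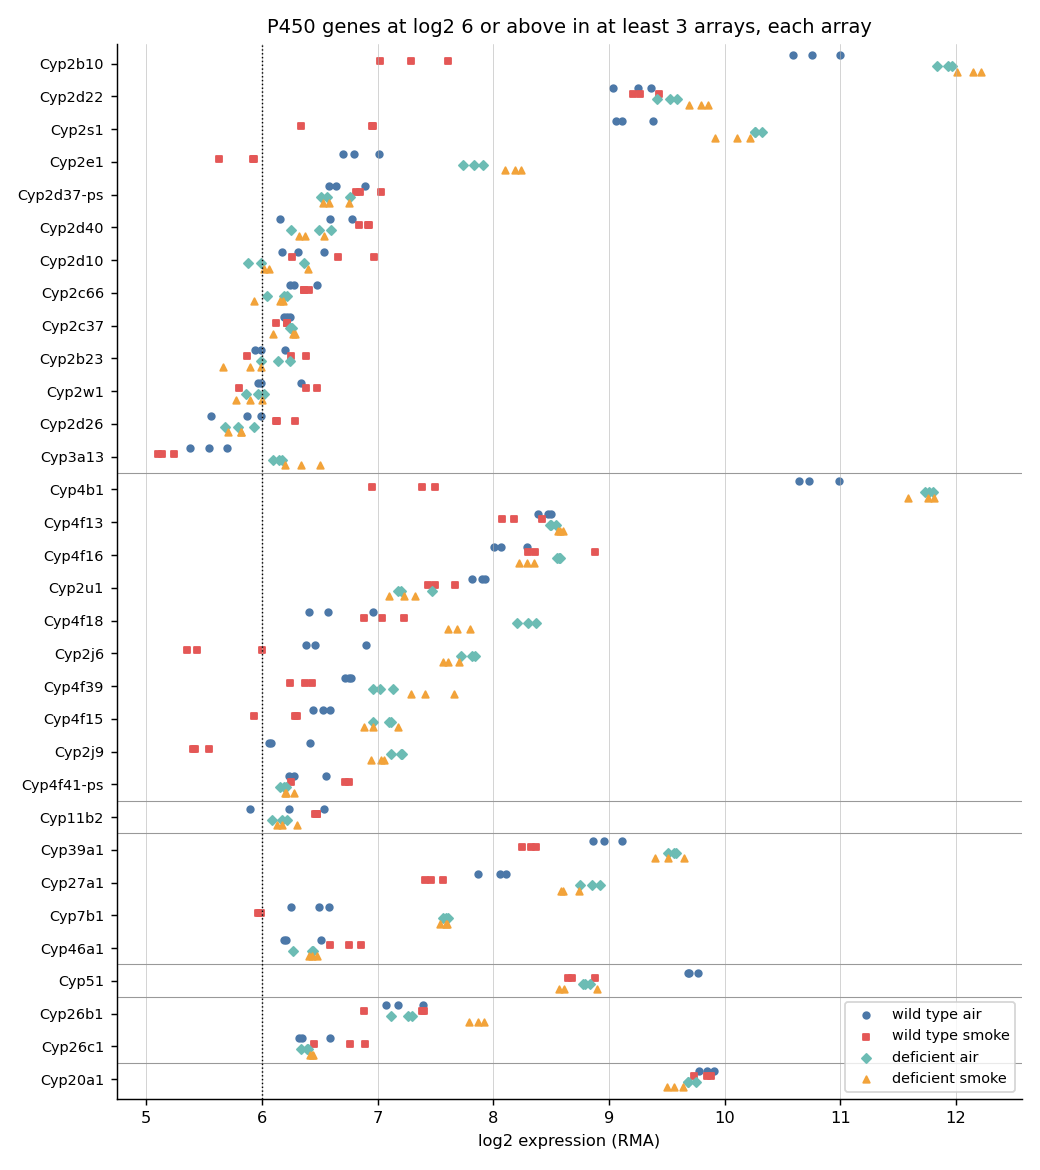
Log2 expression (horizontal axis) of the 32 bright P450 genes (vertical axis, grouped by role with grey lines between roles); each symbol is 1 array, colour and shape give the group, and the dotted line marks log2 6. Cyp2b10, Cyp4b1 and Cyp2s1 sit at 6.34 to 7.61 in wild type smoke and at 9.06 to 12.22 in the other groups, whereas Cyp20a1 and Cyp2c37 spread little.

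Among genes for foreign compounds, Cyp2b10 encodes an enzyme inducible by barbiturates through the receptor CAR. Its log2 values were 10.59, 10.76 and 11.00 in wild type air, 7.61, 7.29 and 7.02 in wild type smoke, 11.84, 11.97 and 11.93 in deficient-labelled air, and 12.01, 12.22 and 12.15 in deficient-labelled smoke. No 2 groups overlapped, and wild type smoke lay lowest by far. The gene fell by 3.48 ± 0.13 in smoke in wild type hosts (adjusted p = 3.35e-10), and the difference of 0.22 ± 0.13 in deficient-labelled hosts did not pass (adjusted p = 0.699). It was higher in deficient-labelled than in wild type arrays by 1.13 under air (adjusted p = 1.59e-05) and by 4.82 under smoke (adjusted p = 4.53e-12).

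Cyp2s1 encodes a P450 found mainly in epithelia outside the liver. It read 9.11, 9.06 and 9.38 in wild type air, 6.34, 6.95 and 6.96 in wild type smoke, 10.26, 10.32 and 10.26 in deficient-labelled air, and 9.92, 10.22 and 10.11 in deficient-labelled smoke. The order of the groups was as for Cyp2b10, except that deficient-labelled smoke lay just under deficient-labelled air. Cyp2s1 fell by 2.43 ± 0.15 in smoke in wild type hosts (adjusted p = 3.04e-08), and the genotype difference was 1.10 under air (adjusted p = 4.39e-05) and 3.33 under smoke (adjusted p = 3.98e-10). The difference of 0.20 between smoke and air within deficient-labelled hosts did not pass (adjusted p = 0.80).

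Cyp2e1 encodes the ethanol-inducible P450. Its values were 6.80, 6.70 and 7.01 in wild type air, 5.93, 5.63 and 5.92 in wild type smoke, 7.91, 7.83 and 7.74 in deficient-labelled air, and 8.24, 8.19 and 8.10 in deficient-labelled smoke. The wild type smoke arrays all lay below 6, so the sizes against them are less sure, and the groups did not overlap. Cyp2e1 fell by 1.01 ± 0.10 in smoke in wild type hosts (adjusted p = 4.08e-06), whereas the difference of 0.35 ± 0.10 upward in deficient-labelled hosts did not pass (adjusted p = 0.109). The genotype difference was 0.99 under air (adjusted p = 3.68e-06) and 2.35 under smoke (adjusted p = 2.48e-10).

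Cyp3a13 belongs to the main drug-metabolising subfamily. It read 5.54, 5.38 and 5.70 in wild type air, 5.14, 5.10 and 5.24 in wild type smoke, 6.10, 6.17 and 6.15 in deficient-labelled air, and 6.20, 6.50 and 6.34 in deficient-labelled smoke. Only the deficient-labelled arrays reached 6, which made the gene bright, and every wild type value lay below it. The sizes that follow are as fitted, rest on these low values and support nothing about bright genes. The fall of 0.38 in smoke in wild type hosts passed (adjusted p = 0.00813), as did the genotype differences of 0.60 under air (adjusted p = 0.000169) and 1.19 under smoke (adjusted p = 1.66e-07).

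The other 9 bright foreign-compound genes moved little. Cyp2d22 was higher in deficient-labelled arrays by 0.30 under air (adjusted p = 0.0199) and by 0.48 under smoke (adjusted p = 0.000575). The air call ended without deficient-labelled air replicate 1 or 2 or wild type air replicate 1 (0.21 to 0.29, adjusted p 0.0564 to 0.101), and with either other scaling. Cyp2d40 rose by 0.39 in smoke in wild type hosts (adjusted p = 0.045), and Cyp2d26 by 0.37 (adjusted p = 0.0171). Cyp2d26 counts as bright through the wild type smoke arrays alone. Its differences against those arrays, by exposure or by genotype, thus support nothing about bright genes. Neither rise was stable. That of Cyp2d40 ended without any of 10 of the 12 arrays, and was 0.22 (adjusted p = 0.169) without wild type air replicate 1, while that of Cyp2d26 ended without wild type air replicate 1 (0.25) or wild type smoke replicate 3 (0.32). In smoke, Cyp2d37-ps, Cyp2d40, Cyp2d10, Cyp2d26, Cyp2c66 and Cyp2b23 were lower in the deficient-labelled arrays, by 0.28 to 0.49. Cyp2w1 and Cyp2c37 passed in no comparison, and the Cyp2c37 group means spanned only 6.19 to 6.25. Genes of the Cyp2c, Cyp2d, Cyp3a, Cyp4a and Cyp4f subfamilies have close paralogs that a probe set can share, so the assignment of these small differences to a single gene is uncertain.

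Cyp4b1, which oxidises fatty acids and activates lung toxicants, is counted here with the fatty acid group. It had the largest fall of the 84 genes in smoke in wild type hosts, just beyond that of Cyp2b10. It read 10.64, 10.73 and 10.99 in wild type air, 6.95, 7.38 and 7.50 in wild type smoke, 11.80, 11.77 and 11.73 in deficient-labelled air, and 11.59, 11.81 and 11.76 in deficient-labelled smoke. The deficient-labelled groups overlapped each other and lay above both wild type groups. Cyp4b1 fell by 3.51 ± 0.13 in smoke in wild type hosts (adjusted p = 2.08e-10), the genotype difference was 0.98 under air (adjusted p = 3.65e-05) and 4.45 under smoke (adjusted p = 6.39e-12), and the smoke difference within deficient-labelled hosts did not pass (adjusted p = 0.995).

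The sequences just before the transcription starts of the genes with the largest falls are shown because the aryl hydrocarbon receptor, the sensor of smoke hydrocarbons, is known to bind DNA at a short core. The core searched was GCGTG, which on the opposite strand reads as CACGC. They come from RefSeq's GRCm38.p6 annotation, written 5′ to 3′ on the strand of the gene, with any GCGTG or CACGC in capitals. Cyp2b10 lies on the plus strand of chromosome 7 (window chr7:25897408-25897657), Cyp2s1 on the minus strand of chromosome 7 (chr7:25816526-25816775) and Cyp4b1 on the minus strand of chromosome 4 (chr4:115647722-115647971).
Cyp2b10: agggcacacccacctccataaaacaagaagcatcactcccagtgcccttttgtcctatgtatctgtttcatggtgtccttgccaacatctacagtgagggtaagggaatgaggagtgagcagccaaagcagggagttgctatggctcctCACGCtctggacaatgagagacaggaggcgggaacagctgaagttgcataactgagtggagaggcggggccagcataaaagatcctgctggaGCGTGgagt
Cyp2s1: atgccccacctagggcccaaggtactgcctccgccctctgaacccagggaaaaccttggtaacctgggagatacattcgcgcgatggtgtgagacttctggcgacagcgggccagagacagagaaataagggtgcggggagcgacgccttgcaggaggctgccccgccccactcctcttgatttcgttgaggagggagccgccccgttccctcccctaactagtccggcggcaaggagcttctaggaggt
Cyp4b1: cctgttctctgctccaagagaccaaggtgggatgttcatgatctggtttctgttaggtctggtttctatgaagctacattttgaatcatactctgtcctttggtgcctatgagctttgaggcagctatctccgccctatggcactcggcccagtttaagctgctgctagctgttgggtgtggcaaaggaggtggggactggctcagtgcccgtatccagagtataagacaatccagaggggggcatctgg
The window of Cyp2b10 held 2 such cores and those of Cyp2s1 and Cyp4b1 held 0, which says only that the letters are not in these windows. Of the 84 genes, 61 were matched to a promoter of this annotation, and 13 of them held GCGTG on either strand, beside 30.9% of the 27025 genes with a promoter there. The other motifs searched on both strands were the GC box GGGCGG (15 of the 61 genes, beside 35.4% of all), the CCAAT box CCAAT (28 of the 61, beside 37.5%), the TATA box TATAAA (22 of the 61, beside 14.3%) and the antioxidant response core TGACNNNGC (3 of the 61, beside 11.5%). Cyp2s1 held 3 GC boxes and Cyp4b1 held 1. In the order of genes on the chromosome, Cyp2s1 and Cyp2b10 are neighbours at the end of a run of 17 P450 genes and pseudogenes that also holds Cyp2f2. Of the 10 genes of that run in the set, only Cyp2s1, Cyp2b10 and Cyp2b23 were bright. Cyp4b1 ends a run of 15, in which it was the only bright gene of 7 measured.

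In smoke in wild type hosts, most markers of epithelial, endothelial and cardiac muscle cells moved in the same direction as Cyp2b10, Cyp4b1, Cyp2s1 and Cyp2e1. Fibroblast markers were mixed and most macrophage markers were higher, as given below. The mean log2 level of 7 club and airway secretory markers was 9.98 to 10.23 in wild type air, 7.15 to 7.34 in wild type smoke, 10.84 to 10.91 in deficient-labelled air and 10.91 to 11.01 in deficient-labelled smoke. All 7 were lower in smoke in wild type hosts, led by Scgb3a2, Scgb1a1 and Cbr2, with a median of -3.27. The share of all genes lower in this comparison, 14.0%, stands beside each such marker count here. All 7 alveolar type II markers fell likewise (median -2.49; group ranges 11.46 to 11.68, 9.13 to 9.33, 12.42 to 12.47 and 12.44 to 12.56 in the same order), as did 5 of 6 alveolar type I markers (10.26 to 10.42, 8.60 to 8.69, 11.06 to 11.14 and 10.94 to 11.08) and 7 of 7 endothelial markers (10.12 to 10.33, 8.86 to 8.95, 11.21 to 11.25 and 11.13 to 11.31). Ciliated cell markers fell in 2 of 4 (7.00 to 7.17, 6.10 to 6.60, 7.55 to 7.62 and 7.47 to 7.55) and cardiac muscle markers in 4 of 4 (9.47 to 9.74, 6.92 to 7.21, 10.52 to 10.57 and 10.39 to 10.49). No marker of these lists lay below 6 in all arrays, and their part in the P450 differences was not tested. Proliferation markers moved the other way between genotypes: their mean was 10.37 to 10.77 in the wild type arrays and 9.06 to 9.67 in the deficient-labelled arrays. There 3 of 3 were lower in both exposures, beside 18.0% of all genes in air and 37.0% in smoke. Fibroblast markers were mixed, with 2 higher and 3 lower of 6 in smoke in wild type hosts, beside 15.0% and 14.0% of all genes (10.87 to 10.97, 10.58 to 10.66, 10.99 to 11.07 and 11.04 to 11.14). Of 4 hepatocyte markers, Alb and Ttr were below 6 in all arrays, as were Hsd3b1 and Mc2r of 4 adrenal cortex markers. Hnf4a and Nr5a1 of these lists lay above 6, at 6.54 to 7.08 and 6.35 to 7.11. In smoke in wild type hosts 2 hepatocyte and 1 adrenal cortex markers were higher and none lower, beside 15.0% and 14.0% of all genes. Between genotypes in smoke 2 and 4 were lower and none higher, beside 37.0% and 22.7%. The mean of 4 hepatocyte markers ranged from 5.77 to 6.11 and that of 4 adrenal cortex markers from 5.11 to 5.59.

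**Figure D2:**
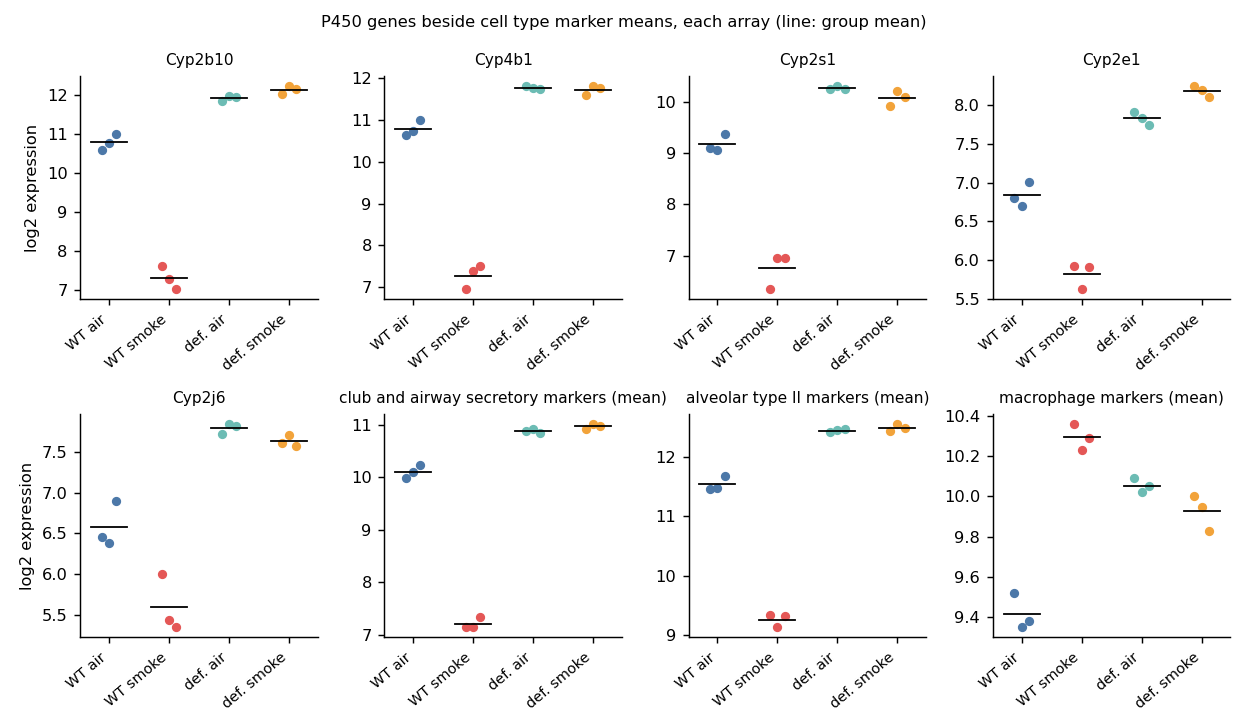
Log2 expression (vertical axes, a separate scale in each panel) of 5 P450 genes and the mean of 3 marker lists in each array, by group (WT, wild type; def., deficient-labelled), with a line at the group mean. Cyp2b10, Cyp4b1, Cyp2s1, Cyp2e1 and Cyp2j6 and the club cell and alveolar type II means are lowest in wild type smoke and highest in the deficient-labelled groups, whereas the macrophage mean is lowest in wild type air (9.35 to 9.52) and highest in wild type smoke (10.23 to 10.36).

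The Cyp2j enzymes turn arachidonic acid into epoxides and hydroxylated products. Cyp2j6 read 6.46, 6.38 and 6.90 in wild type air, 6.00, 5.44 and 5.35 in wild type smoke, 7.72, 7.84 and 7.82 in deficient-labelled air, and 7.61, 7.70 and 7.57 in deficient-labelled smoke. Both genotypes separated cleanly. Wild type smoke replicates 2 and 3 lay below 6, so the sizes against that group are less sure. Cyp2j6 fell by 0.98 ± 0.16 in smoke in wild type hosts (limma, adjusted p = 0.000401). It was higher in deficient-labelled arrays by 1.22 under air (limma, adjusted p = 3.47e-05) and 2.03 under smoke (limma, adjusted p = 1.44e-07). The interaction of 0.81 (adjusted p = 0.0248) ended without deficient-labelled air replicate 1, deficient-labelled smoke replicate 2, wild type air replicate 3 or wild type smoke replicate 2 or 3 (0.65 to 0.78, adjusted p 0.0549 to 0.0667).

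Its neighbour on the chromosome, Cyp2j9, read 6.06, 6.08 and 6.42 in wild type air, 5.42, 5.40 and 5.54 in wild type smoke, 7.12, 7.20 and 7.21 in deficient-labelled air, and 7.03, 6.94 and 7.06 in deficient-labelled smoke. The groups did not overlap, and the wild type smoke arrays all lay below 6, so the sizes against them are less sure. Cyp2j9 fell by 0.73 ± 0.091 in smoke in wild type hosts (adjusted p = 4.32e-05), and the genotype difference was 1.00 under air (adjusted p = 1.79e-06) and 1.55 under smoke (adjusted p = 8.1e-09). Of the 6 Cyp2j genes in the set, these were the only bright ones, and whether they share probes was not tested.

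Genes of the Cyp4f subfamily shorten the action of leukotrienes and other eicosanoids by oxidising their tail. Cyp4f18, the leukotriene-oxidising enzyme of mouse neutrophils, read 6.96, 6.41 and 6.57 in wild type air, 7.23, 7.04 and 6.88 in wild type smoke, 8.21, 8.37 and 8.30 in deficient-labelled air, and 7.69, 7.61 and 7.80 in deficient-labelled smoke. The wild type groups overlapped each other, and every deficient-labelled array lay above them. Cyp4f18 was higher in deficient-labelled arrays by 1.64 ± 0.13 in air (3.12-fold, adjusted p = 4.62e-07) and by 0.65 in smoke (adjusted p = 0.000682). In smoke than in air it was 0.40 higher in wild type hosts (limma, adjusted p = 0.0301) and 0.59 lower in deficient-labelled hosts (limma, adjusted p = 0.0248). The interaction was -0.99 (limma, adjusted p = 0.00159). The interaction remained in every alternative, whereas the smoke differences did not. The wild type rise ended without wild type air replicate 2 or 3 or wild type smoke replicate 1 or 2 (0.29 to 0.41, adjusted p 0.0657 to 0.106), and the deficient-labelled fall ended without any of the 6 deficient-labelled arrays (0.54 to 0.64 in size, adjusted p 0.0569 to 0.125) or with quantile normalization.

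Markers of neutrophils, macrophages and B cells are given beside Cyp4f18. The mean of 7 neutrophil markers was 6.36 to 6.62, 6.92 to 7.04, 7.11 to 7.19 and 7.52 to 7.63 in the same order of groups. Of these markers, 5 were higher in smoke in wild type hosts and 4 in deficient-labelled hosts, beside 15.0% and 0.692% of all genes. Ly6g was below 6 in all arrays. Of 8 macrophage markers, 7 were higher and 0 lower in smoke in wild type hosts, beside 15.0% and 14.0% of all genes. In deficient-labelled hosts 0 were higher and 2 lower, beside 0.692% and 1.72% (group ranges 9.35 to 9.52, 10.23 to 10.36, 10.02 to 10.09 and 9.83 to 10.00). Of 4 B cell markers, 3 were lower in smoke in wild type hosts and 2 in deficient-labelled hosts, beside 14.0% and 1.72% of all genes (7.17 to 7.37, 5.85 to 6.45, 7.97 to 8.05 and 7.47 to 7.54). Between genotypes in air 6 neutrophil, 7 macrophage and 3 B cell markers were higher in deficient-labelled arrays and none lower. The shares of all genes there were 20.5% and 18.0%. Between genotypes in smoke 5, 1 and 3 were higher and 1, 5 and 0 lower, beside 22.7% and 37.0% of all genes. The part of these cells in the Cyp4f18 difference was not tested.

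Cyp4f39, whose human counterpart makes barrier lipids of the skin, read 6.75, 6.72 and 6.77 in wild type air, 6.24, 6.37 and 6.43 in wild type smoke, 7.13, 6.96 and 7.02 in deficient-labelled air, and 7.29, 7.41 and 7.66 in deficient-labelled smoke. The 4 groups did not overlap, and smoke went with lower values in wild type and higher values in deficient-labelled hosts. It fell by 0.40 ± 0.09 in smoke in wild type hosts (adjusted p = 0.00522) and rose by 0.42 ± 0.09 in deficient-labelled hosts (adjusted p = 0.0265), with an interaction of 0.82 (adjusted p = 0.00054). The rise ended without deficient-labelled air replicate 2 or 3 or deficient-labelled smoke replicate 2 or 3 (0.32 to 0.44, adjusted p 0.0673 to 0.147). The genotype difference was 1.11 in smoke (adjusted p = 2.57e-07) and 0.29 in air (adjusted p = 0.0216), the latter lost without deficient-labelled air replicate 1 or wild type air replicate 1 or 2 (0.24 to 0.29) and with median centring.

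The remaining family 4 genes changed less. Cyp4f15 was lower in smoke in wild type hosts by 0.35 (adjusted p = 0.0277) and higher in deficient-labelled arrays by 0.54 under air (adjusted p = 0.00109) and 0.83 under smoke (adjusted p = 1.92e-05). Its smoke fall ended without wild type air replicate 2 or 3 (0.34 and 0.31 in size), without wild type smoke replicate 1 (0.22 in size) and with median centring. Cyp4f16 moved in the other direction, by 0.39 upward in smoke in wild type hosts (adjusted p = 0.0344), with an interaction of -0.67 (adjusted p = 0.0224) and a genotype difference of 0.44 in air (adjusted p = 0.013). These 3 calls rested on few arrays: the rise was 0.21 (adjusted p = 0.0545) without wild type smoke replicate 1, and ended also without wild type air replicate 2 (0.36) or 3 (0.34), the interaction ended without wild type air replicate 3, deficient-labelled air replicate 1 or deficient-labelled smoke replicate 3 (-0.66 to -0.61), and the air difference ended without wild type air replicate 3 (0.39, adjusted p = 0.0523). Cyp4f13 was 0.22 lower in smoke in wild type hosts at an adjusted p of 0.0498, a call that ended without any array but wild type smoke replicate 1 (0.15 to 0.26 in size), and 0.35 higher in deficient-labelled smoke (adjusted p = 0.00209). The pseudogene Cyp4f41-ps was 0.34 lower in deficient-labelled smoke arrays (adjusted p = 0.0248).

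Cyp2u1, a fatty acid hydroxylase, was lower in deficient-labelled arrays, by 0.60 ± 0.093 under air (adjusted p = 0.000159) and by 0.32 under smoke (adjusted p = 0.0105). It was 0.35 lower in smoke in wild type hosts (adjusted p = 0.0137), which ended without wild type air replicate 3 (0.32 in size, adjusted p = 0.0551). The dim gene Cyp4a12b was lower in smoke in wild type hosts by 0.35 (adjusted p = 0.0052) and higher in deficient-labelled arrays by 0.82 under air (adjusted p = 3.17e-06) and 0.95 under smoke (adjusted p = 3.31e-07), and the dim gene Cyp4a12a by 0.53 in air (adjusted p = 0.000502). Over the 24 fatty acid and eicosanoid genes, 8 fell and 3 rose in smoke in wild type hosts, beside 14.0% and 15.0% of all genes. Between genotypes in air 9 were higher and 1 lower, beside 20.5% and 18.0%.

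Enzymes that act beside these P450s, the epoxide hydrolases and the P450-fold prostanoid synthases, had 6 genes measured. In smoke in wild type hosts 3 fell, beside 14.0% of all genes, and Tbxas1, the thromboxane synthase, rose by 0.46 (adjusted p = 0.0165). Ephx1, the microsomal epoxide hydrolase that clears epoxides of foreign compounds, fell by 1.48 ± 0.13 (adjusted p = 1.08e-06), and Ptgis, the prostacyclin synthase, by 0.84 ± 0.082 (adjusted p = 4.41e-06). In deficient-labelled hosts limma called 0 of the 6 between smoke and air, and 2 had an unadjusted p under 0.05. Between genotypes, 5 of 6 were higher in deficient-labelled arrays in air, beside 20.5% of all genes, and 5 of 6 in smoke, beside 22.7%, with Ephx1 at 1.08 and 2.46 and Ptgis at 1.16 and 1.69.

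Of the 6 genes of oxysterol and bile acid metabolism, 3 fell and 1 rose in smoke in wild type hosts, beside 14.0% and 15.0% of all genes. Cyp39a1, an oxysterol hydroxylase on the way to bile acids, read 8.86, 8.96 and 9.11 in wild type air, 8.25, 8.33 and 8.37 in wild type smoke, 9.51, 9.56 and 9.58 in deficient-labelled air, and 9.40, 9.65 and 9.51 in deficient-labelled smoke. Only the deficient-labelled groups overlapped. Cyp39a1 fell by 0.66 ± 0.081 in smoke in wild type hosts (adjusted p = 3.75e-05), and the genotype difference was 0.57 under air (adjusted p = 7.39e-05) and 1.20 under smoke (adjusted p = 3.6e-08).

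Cyp27a1, the mitochondrial sterol hydroxylase, read 7.87, 8.06 and 8.11 in wild type air, 7.46, 7.41 and 7.57 in wild type smoke, 8.85, 8.92 and 8.75 in deficient-labelled air, and 8.74, 8.60 and 8.59 in deficient-labelled smoke. The genotypes did not overlap, and in each genotype smoke lay under air. The fall of 0.53 ± 0.082 in wild type hosts passed (adjusted p = 0.000291), the difference of 0.20 ± 0.082 in deficient-labelled hosts did not (adjusted p = 0.387), and neither did the interaction of 0.33 (adjusted p = 0.076). The genotype difference was 0.83 under air (adjusted p = 3.52e-06) and 1.16 under smoke (adjusted p = 5.58e-08).

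Cyp7b1 encodes an oxysterol hydroxylase of bile acid synthesis. It read 6.49, 6.25 and 6.58 in wild type air, 5.99, 5.98 and 5.97 in wild type smoke, 7.61, 7.59 and 7.57 in deficient-labelled air, and 7.59, 7.60 and 7.54 in deficient-labelled smoke. The deficient-labelled groups overlapped and lay above every wild type array. All wild type smoke arrays lay just below 6, so the sizes against them are less sure. Cyp7b1 fell by 0.46 ± 0.076 in smoke in wild type hosts (adjusted p = 0.000491) and was higher in deficient-labelled arrays by 1.15 under air (adjusted p = 1.69e-07) and 1.60 under smoke (adjusted p = 9.1e-10).

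Cyp46a1, the cholesterol hydroxylase known from neurons, went the other way: it rose by 0.43 ± 0.10 in smoke in wild type hosts (adjusted p = 0.00461) and was 0.29 lower in deficient-labelled smoke arrays (adjusted p = 0.018). The latter call ended without deficient-labelled smoke replicate 2 (0.28 in size) or wild type smoke replicate 3 (0.23 in size). Around these enzymes, 11 oxysterol and bile acid genes were measured, of which 4 rose and 2 fell in smoke in wild type hosts, beside 15.0% and 14.0% of all genes. Nr1h3, which encodes an oxysterol receptor, fell by 1.07 ± 0.078 (adjusted p = 2.4e-07), and its target Abca1, a cholesterol exporter, rose by 0.46 (adjusted p = 3.24e-05), while Abcg1 fell by 0.47 (adjusted p = 0.00144). Ch25h, whose product is a substrate of Cyp7b1, rose by 0.63 (adjusted p = 0.00995). In deficient-labelled hosts limma called 0 of 11 between smoke and air, and 1 had an unadjusted p under 0.05. Between genotypes 7 of 11 were higher and 0 lower in air, beside 20.5% and 18.0% of all genes, and 6 higher and 1 lower in smoke, beside 22.7% and 37.0%, with Nr1h3 at 0.81 and 1.73 and Abcg1 at 1.24 and 1.79.

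Cyp51, lanosterol demethylase, is the P450 of cholesterol synthesis. Its values were 9.69, 9.68 and 9.77 in wild type air, 8.88, 8.68 and 8.65 in wild type smoke, 8.79, 8.84 and 8.78 in deficient-labelled air, and 8.90, 8.61 and 8.57 in deficient-labelled smoke. Wild type air stood alone, and the other 3 groups overlapped. Cyp51 fell by 0.98 ± 0.09 in smoke in wild type hosts (adjusted p = 2.34e-06) and was 0.91 ± 0.09 lower in deficient-labelled than in wild type arrays in air (adjusted p = 3.51e-06). The differences of 0.11 between smoke and air in deficient-labelled hosts (adjusted p = 0.857) and of 0.039 between genotypes in smoke (adjusted p = 0.718) did not pass, and the interaction was 0.87 (adjusted p = 0.000292). This order of groups was unlike that of Cyp2b10 or Cyp4b1, for which the deficient-labelled arrays lay highest.

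The window before the Cyp51 start is shown because the gene is a textbook target of the sterol-sensing factors SREBP, which bind sterol regulatory elements. It lies on the minus strand of chromosome 5 (chr5:4104698-4104947), is credited to the same RefSeq annotation, and has in capitals the sterol element ATCACCNCA and a GCGTG core.
Cyp51: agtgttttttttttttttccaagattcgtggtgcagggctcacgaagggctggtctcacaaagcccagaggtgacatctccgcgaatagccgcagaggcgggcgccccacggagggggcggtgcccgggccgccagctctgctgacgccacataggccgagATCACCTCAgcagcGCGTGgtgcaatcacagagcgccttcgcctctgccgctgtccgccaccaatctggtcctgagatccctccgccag
The element was found in 1 of the 61 matched P450 promoters, this window, and in 0.74% of all 27025. Its form with a free base was chosen after the Cyp51 sequence had been seen.

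The other genes of the cholesterol synthesis list, which also holds the regulators Insig1 and Srebf2, moved with Cyp51 in smoke in wild type hosts. There 18 of 18 measured genes fell (median -0.72), beside 14.0% of all genes. Msmo1, a sterol oxidase downstream of Cyp51, fell by 1.00 ± 0.067 (adjusted p = 8.76e-08), Hmgcs1, at the start of the pathway, by 0.94 ± 0.062 (adjusted p = 8.76e-08), Idi1 by 1.38 ± 0.12 (adjusted p = 1.29e-06), and Insig1, a sterol sensor, by 1.17 ± 0.08 (adjusted p = 1.18e-07). In deficient-labelled hosts 3 of 18 fell in smoke, beside 1.72% of all genes, and none rose: Msmo1 by 0.32, Lss by 0.40 and Insig1 by 0.33. Between genotypes in air 13 of 18 were lower and 2 higher in the deficient-labelled arrays (median -0.43), beside 18.0% and 20.5% of all genes, with Sqle 0.96 lower (adjusted p = 3.63e-07) and Ebp 0.72 higher (adjusted p = 3.8e-05). In smoke 7 were higher and 3 lower (median 0.083), beside 22.7% and 37.0%, and Ebp was 1.16 higher (adjusted p = 2.4e-07) whereas Sqle was 0.46 lower (adjusted p = 0.000101). The interaction passed upward for 14 of 18, beside 8.89% of all genes. Proliferation markers, whose values are given above, were lower in deficient-labelled than in wild type air. Between smoke and air in wild type hosts their median difference was 0.32. There limma called 0 of the 3 markers, and 2 had an unadjusted p under 0.05. Their part in the Cyp51 difference was not tested.

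**Figure D3:**
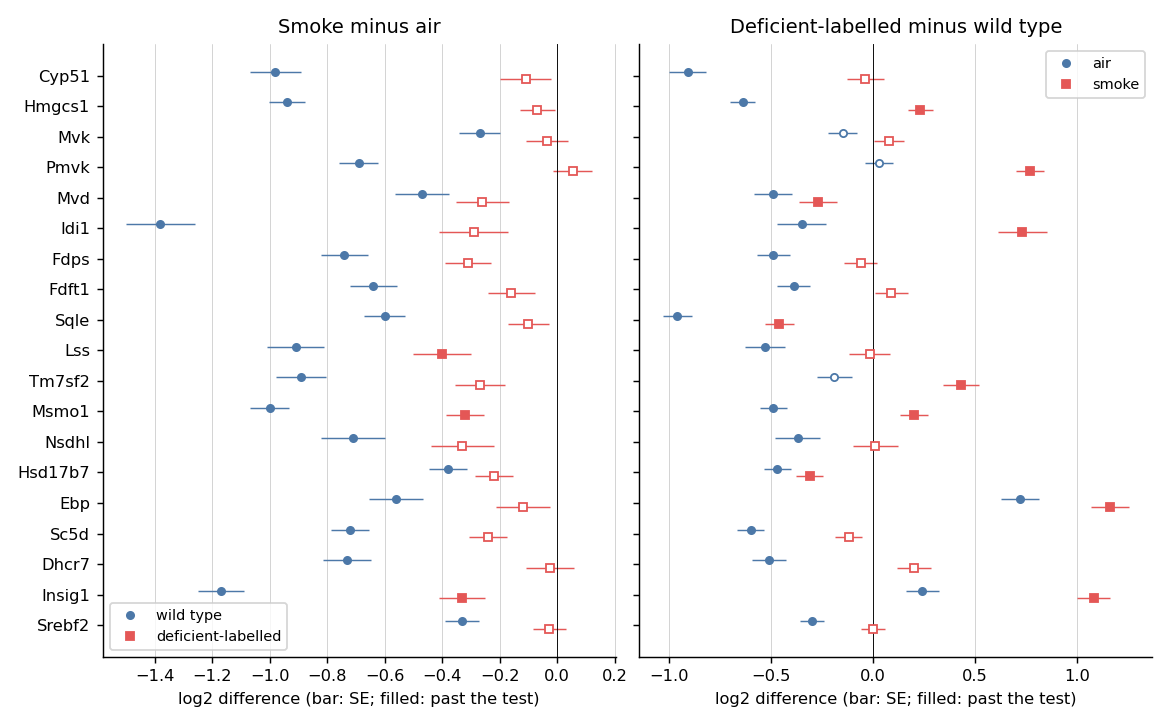
Log2 differences (horizontal axes) of Cyp51 and 18 genes of cholesterol synthesis and its regulation (vertical axis), smoke minus air at left and deficient-labelled minus wild type at right. Bars are SE and filled symbols passed the test. In wild type hosts all genes shown lie below 0 in smoke, from -1.38 (Idi1) to -0.27 (Mvk), while Cyp51 has open symbols in deficient-labelled hosts and between genotypes in smoke.

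Of the enzymes that break down retinoic acid, Cyp26b1 was the only one of the 84 genes outside family 4 that rose in smoke in deficient-labelled hosts. It read 7.07, 7.39 and 7.18 in wild type air, 6.88, 7.38 and 7.40 in wild type smoke, 7.26, 7.12 and 7.30 in deficient-labelled air, and 7.87, 7.79 and 7.92 in deficient-labelled smoke. Deficient-labelled smoke lay above all other arrays, and the other groups overlapped. Cyp26b1 rose by 0.63 ± 0.13 in smoke in deficient-labelled hosts (adjusted p = 0.0169), against 0.0091 ± 0.13 in wild type hosts (adjusted p = 0.961), and was 0.64 higher than in wild type smoke (adjusted p = 0.000774). The interaction of 0.62 passed (adjusted p = 0.0319), but it ended without any of 7 arrays, namely wild type air replicate 2 or 3, deficient-labelled air replicate 1 or 2 or any deficient-labelled smoke array (0.54 to 0.66, adjusted p 0.0511 to 0.0835). The smoke rise likewise ended without any deficient-labelled air array or deficient-labelled smoke replicate 1 or 3 (0.58 to 0.67, adjusted p 0.0502 to 0.0952).

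Cyp26a1, a dim gene that retinoic acid itself induces, was 0.34 higher in smoke in wild type hosts (adjusted p = 0.0212) and 0.50 lower in deficient-labelled than in wild type smoke (adjusted p = 0.000789). The first of these ended without wild type air replicate 2 or 3 or wild type smoke replicate 3 (0.24 to 0.33, adjusted p 0.0555 to 0.103) and with quantile normalization. Cyp26c1 was 0.27 lower in deficient-labelled smoke (adjusted p = 0.0356). Among 15 measured genes of retinoic acid handling, 3 rose and 6 fell in smoke in wild type hosts, beside 15.0% and 14.0% of all genes. Aldh1a1, a retinaldehyde dehydrogenase, fell by 4.21 ± 0.072 (adjusted p = 5.88e-13) and Lrat, which stores retinol as ester, by 2.95 ± 0.13 (adjusted p = 1.14e-09), whereas Stra6, the retinol uptake receptor, rose by 1.33 ± 0.15 (adjusted p = 1.56e-05). In deficient-labelled hosts 1 of 15 passed, Aldh1a2, lower by 0.58 (adjusted p = 0.0435). Between genotypes 5 were higher and 7 lower both in air, beside 20.5% and 18.0% of all genes, and in smoke, beside 22.7% and 37.0%, with Aldh1a1 0.79 and 5.09 higher and Rdh10, which makes retinaldehyde, 1.04 and 1.34 lower.

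In vitamin D metabolism, Cyp2r1, which adds the first hydroxyl group in the liver, was dim but passed. Its values were 5.05, 4.90 and 4.89 in wild type air, 4.93, 4.76 and 4.74 in wild type smoke, 5.59, 5.71 and 5.49 in deficient-labelled air, and 5.22, 5.02 and 5.17 in deficient-labelled smoke. The deficient-labelled air arrays lay above all others. Cyp2r1 fell by 0.46 ± 0.084 in smoke in deficient-labelled hosts (adjusted p = 0.00942), which ended without deficient-labelled air replicate 2 or deficient-labelled smoke replicate 2 (0.40 in size, adjusted p 0.053 to 0.0639). It was higher in deficient-labelled arrays by 0.65 under air (adjusted p = 3.49e-05) and by 0.33 under smoke (adjusted p = 0.00467), the latter lost with median centring. Cyp27b1, which activates vitamin D, was dim and 0.33 lower in deficient-labelled smoke (adjusted p = 0.0187). Of 4 measured vitamin D genes 1 rose and 1 fell in smoke in wild type hosts, beside 15.0% and 14.0% of all genes, and 1 rose in deficient-labelled hosts, beside 0.692%. Lrp2, which takes up carrier-bound vitamin D, fell by 0.81 in wild type hosts (adjusted p = 2.34e-06) and rose by 0.47 in deficient-labelled hosts (adjusted p = 0.00367), with an interaction of 1.28 (adjusted p = 1.47e-06). Between genotypes 2 were higher and none lower in air, beside 20.5% of all genes, and 2 higher and 1 lower in smoke, beside 22.7% and 37.0%, and Vdr, the receptor, was higher by 0.37 and 0.35.

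Steroid hormone synthesis was represented by 5 P450 genes, of which only Cyp11b2, the aldosterone synthase, was bright, with group means of 6.16 to 6.47, and it passed in no comparison. Cyp11a1, which cleaves the side chain of cholesterol, was dim, rose by 0.37 in smoke in wild type hosts (adjusted p = 0.0105) and was 0.41 lower in deficient-labelled than in wild type smoke (adjusted p = 0.00237). The rise ended with the 6 arrays of the comparison alone (adjusted p = 0.0547), and quantile normalization moved it to 0.24 and the genotype difference from -0.41 to -0.25. Of 8 other measured genes of steroid synthesis, 2 rose and 1 fell in smoke in wild type hosts, beside 15.0% and 14.0% of all genes. In deficient-labelled hosts limma called 0, and 1 had an unadjusted p under 0.05. Between genotypes 1 was higher in deficient-labelled arrays in air, beside 20.5%, and 1 was higher and 4 lower in smoke, beside 22.7% and 37.0%. The gene that fell was Hsd11b1, which regenerates active glucocorticoid, by 2.97 ± 0.094 (adjusted p = 5.29e-11), and it was higher in deficient-labelled arrays by 1.00 in air and 3.84 in smoke. Cyp20a1 had group means of 9.57 to 9.85 and was 0.26 lower in deficient-labelled smoke (adjusted p = 0.00502), or 0.40 lower with median centring.

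P450 enzymes depend on electron donors and haem-binding partners, and 9 such genes were measured. In smoke in wild type hosts 4 fell, beside 14.0% of all genes, and none rose: Pgrmc1, a haem-binding P450 partner, by 0.59 ± 0.078 (adjusted p = 7.13e-05), Cyb5a, cytochrome b5, by 0.55 ± 0.11 (adjusted p = 0.00253), Cyb5b by 0.33 and Cyb5r1 by 0.25. In deficient-labelled hosts limma called 0, and 0 had an unadjusted p under 0.05. Between genotypes 4 were higher in air, beside 20.5% of all genes, and 4 in smoke, beside 22.7%, with Pgrmc1 at 0.43 and 0.96, Cyb5a at 0.58 and 1.07 and Fdx1, the electron donor of mitochondrial P450s, at 0.32 and 0.32.

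Of 17 measured regulators of P450 genes, 2 rose and 7 fell in smoke in wild type hosts, beside 15.0% and 14.0% of all genes. Ahr, the aryl hydrocarbon receptor, fell by 1.39 ± 0.068 (adjusted p = 3.94e-09), against a difference of 0.16 upward in deficient-labelled hosts (adjusted p = 0.431). It was higher in deficient-labelled arrays by 0.49 under air (adjusted p = 6.99e-05) and by 2.03 under smoke (adjusted p = 2.9e-11). Cebpa fell by 0.55 and Pparg by 0.40, and both were higher in deficient-labelled arrays in both exposures, Cebpa by 0.74 and 1.55 and Pparg by 0.84 and 1.01. The receptors that sense foreign compounds, Nr1i2 (PXR) and Nr1i3 (CAR), named here after their values were seen, did not pass between smoke and air in either genotype, and Nr1i3 was below 6 in all arrays. In deficient-labelled hosts limma called 0 of 17, and 4 had an unadjusted p under 0.05. Between genotypes 8 were higher and 1 lower in air, beside 20.5% and 18.0% of all genes, and 8 higher and 3 lower in smoke, beside 22.7% and 37.0%.

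**Figure D4:**
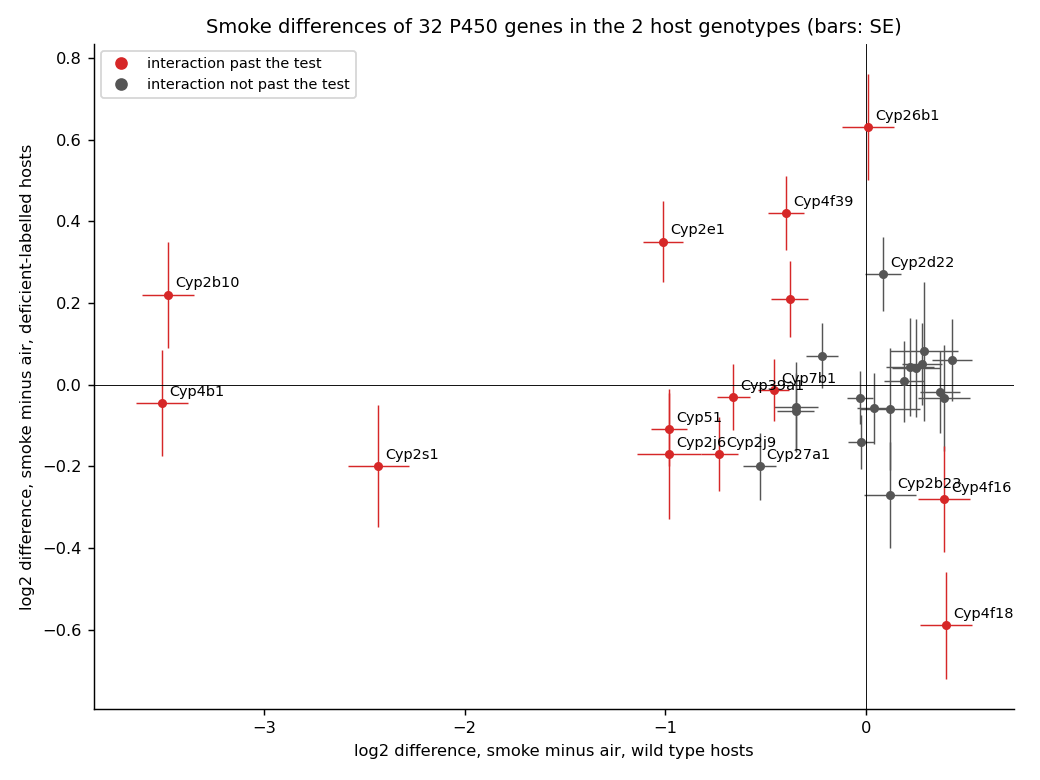
Log2 difference between smoke and air in wild type hosts (horizontal axis) against that in deficient-labelled hosts (vertical axis) for the 32 bright P450 genes, with SE bars; red points passed the interaction test. The horizontal spread runs from -3.51 (Cyp4b1) to 0.43 (Cyp46a1) and the vertical one from -0.59 (Cyp4f18) to 0.63 (Cyp26b1).

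The 52 dim genes are given beside all dim genes. In smoke in wild type hosts 4 were called higher and 1 lower, beside 14.5% and 0.730% of the 4930 dim genes, and the median difference was 0.13 against 0.14 over all dim genes. The 4 were Cyp1a2, Cyp4a14, Cyp11a1 and Cyp26a1. Cyp1a2, a neighbour of Cyp1a1 on the chromosome and in liver its co-induced partner, read 4.46, 4.41 and 4.49 in wild type air, 4.91, 4.79 and 4.84 in wild type smoke, 4.45, 4.41 and 4.35 in deficient-labelled air, and 4.31, 4.55 and 4.52 in deficient-labelled smoke. All values lay far under 6, and only wild type smoke stood apart, by 0.39 (adjusted p = 0.00142). In deficient-labelled hosts, where Cyp1a1 rose, its difference of 0.054 did not pass (adjusted p = 0.963).

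Between genotypes in air 4 dim genes were higher (Cyp2ab1, Cyp4a12a, Cyp4a12b and Cyp2r1) and 3 lower (Cyp2d9, Cyp2d12 and Cyp3a44), beside 3.57% and 2.60% of dim genes. The call of Cyp2ab1 (0.52) ended without wild type or deficient-labelled air replicate 1 (0.47 and 0.46), that of Cyp2d12 (-0.25) without wild type air replicate 3 (-0.21) or deficient-labelled air replicate 2 (-0.19), that of Cyp2d9 (-0.24) without deficient-labelled air replicate 1 (-0.22), and that of Cyp3a44 (-0.23) without wild type air replicate 2 or 3, any deficient-labelled air array or deficient-labelled smoke replicate 1 (-0.24 to -0.19). In smoke Cyp2b9, Cyp4a12b and Cyp2r1 were higher and 12 dim genes were lower by 0.18 to 0.50, beside 3.41% and 35.1% of dim genes. The call of Cyp2b9 (0.39) ended with median centring (0.25, adjusted p = 0.0541). The lower genes were Cyp2t4, Cyp2d34, Cyp2c70, Cyp1a2, Cyp3a25, Cyp2c39, Cyp4a14, Cyp4x1, Cyp4a10, Cyp11a1, Cyp27b1 and Cyp26a1. The median of dim P450 genes there was -0.12, and that of all dim genes -0.18.

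Small differences in deficient-labelled smoke were sensitive to single arrays. Of the 23 calls of lower level, 15 ended when at least 1 array was left out: Cyp26c1, Cyp27b1, Cyp2b23, Cyp2c39, Cyp2c66, Cyp2c70, Cyp2d10, Cyp2d34, Cyp2d37-ps, Cyp3a25, Cyp46a1, Cyp4a10, Cyp4a14, Cyp4f41-ps and Cyp4x1, with differences of -0.46 to -0.14 and adjusted p of 0.0508 to 0.196 then. Without wild type smoke replicate 2 or deficient-labelled smoke replicate 2, 30 of the 42 calls remained, without deficient-labelled smoke replicate 1, 32, without wild type smoke replicate 3, 33, and without deficient-labelled smoke replicate 3, 36. Without any other array at least 40 remained. Quantile normalization ended the calls of Cyp2b23 (-0.25), Cyp2c39 (-0.11), Cyp2c70 (-0.14), Cyp2d34 (-0.22), Cyp2t4 (-0.21), Cyp3a25 (-0.06), Cyp4a10 (-0.15), Cyp4a14 (-0.13) and Cyp4x1 (-0.027), and moved that of Cyp1a2 from -0.39 to -0.23.

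**Figure D5:**
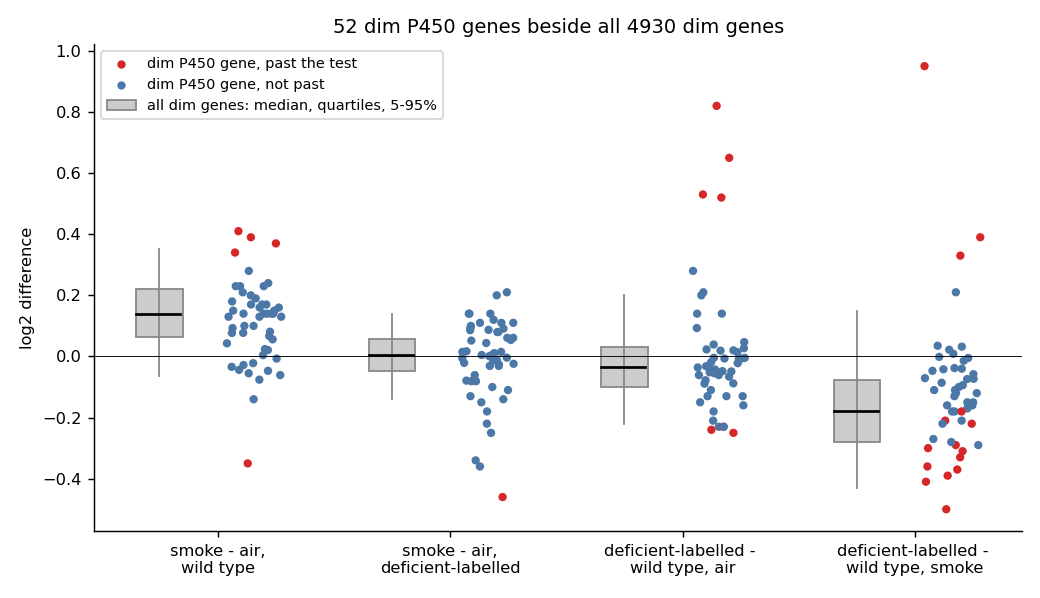
Log2 differences (vertical axis) of the 52 dim P450 genes (points, red where the test passed) in 4 comparisons (horizontal axis), beside all 4930 dim genes (box from lower to upper quartile, line at the median, whiskers from percentile 5 to 95). The P450 medians of 0.13 in smoke in wild type hosts and -0.12 between genotypes in smoke lie near those of all dim genes, 0.14 and -0.18.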

How the data were processed

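The log2 values were used as the authors deposited them, after RMA in Affymetrix Expression Console, per the submitters' processing notes; versions are not given in the sources used here. RMA applies background correction, quantile normalization and probe summary, which can shrink differences of dim genes. Each gene took its probe set with the highest mean, among those naming 1 gene. The 84 Entrez identifiers all matched the RefSeq GRCm38.p6 table. The P450 genes and all gene lists were chosen with earlier results of these data known. A limma 3.58.1 model (R 4.3.3) with 1 mean per group was fitted to 19937 genes and 12 arrays, tested on simulated data, and p-values were adjusted over all genes by the Benjamini-Hochberg method, with a limit of 0.05. The residual degrees of freedom were 8. All bright P450 genes and all dim ones that passed are named, and up to 4 genes of each list with the smallest p. Lists covered redox partners, regulators, cholesterol synthesis, retinoic acid, vitamin D, oxysterols, steroid synthesis, epoxide hydrolases, and cell type markers. Alternatives were 2 other scalings, a level filter, the arrays of a comparison alone, the mean over probe sets of a gene, a replicate block and leaving out each array. The number of arrays limits precision. Figures used Python 3.11.15 and matplotlib 3.10.9. Probe sets naming several genes were left out. No list marked the carcinoma cells themselves.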

Additional observations from a re-analysis of the deposited data

Results flagged for a closer look

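For 19 P450 genes the smoke difference itself differed between deficient-labelled and wild type hosts, by the interaction term of the limma model (values are deficient-labelled minus wild type, log2, with adjusted p under 0.05). It was positive for 12 genes. The largest were Cyp2b10 at 3.69 ± 0.19 (SE, adjusted p = 1.5e-08), Cyp4b1 at 3.47 ± 0.18 (adjusted p = 1.71e-08), Cyp2s1 at 2.23 ± 0.21 (adjusted p = 4.51e-06) and Cyp2e1 at 1.36 ± 0.14 (adjusted p = 1.18e-05). Cyp51 followed at 0.87, Cyp4f39 at 0.82, Cyp2j6 at 0.81, Cyp39a1 at 0.63, Cyp26b1 at 0.62, Cyp3a13 at 0.59, Cyp2j9 at 0.56 and Cyp7b1 at 0.45. It was negative for 7 genes, with Cyp4f18 at -0.99, Cyp4f16 at -0.67, Cyp11a1 at -0.55, Cyp26a1 at -0.50, Cyp4a14 at -0.49, Cyp2c70 at -0.44 and Cyp1a2 at -0.34. The last 5 are dim genes. Of the 19, 12 passed in every alternative tried that allowed the test, and Cyp2j6, Cyp26b1, Cyp4f16, Cyp26a1, Cyp4a14, Cyp2c70 and Cyp1a2 did not. Without single arrays Cyp26a1 lay between -0.52 and -0.40 where it was lost, Cyp4a14 between -0.47 and -0.40, Cyp2c70 between -0.48 and -0.35 and Cyp1a2 between -0.37 and -0.26.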

How the results depend on the processing

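No P450 difference that passed changed its sign in the alternatives tried. Of the calls, 16 of 25 for smoke in wild type hosts, 0 of 4 for smoke in deficient-labelled hosts, 17 of 24 for genotype in air, 24 of 42 for genotype in smoke and 12 of 19 for the interaction remained in every alternative that tested them; the level filter tested 20, 3, 17, 27 and 14 of these calls, since it drops dim genes. With arrays centred on their median, 40 genes passed for smoke in wild type hosts (26 higher), 11 were lower by genotype in air, 67 passed by genotype in smoke (50 lower) and 11 interactions were negative. This centring moved the median of all genes from 0.082 to 0.17 for smoke in wild type hosts and from -0.14 to -0.28 for genotype in smoke. With quantile normalization 1 gene was lower for smoke in deficient-labelled hosts and 15 by genotype in smoke. With only genes at log2 6 or above in at least 3 arrays, by construction fewer genes were tested: 1 was lower for smoke in deficient-labelled hosts, 2 by genotype in air, 27 passed by genotype in smoke (11 lower) and 2 interactions were negative. With the 6 arrays of a comparison alone, 3 genes were higher for smoke in wild type hosts and 7 passed in deficient-labelled hosts (4 lower); the interaction needs all groups and has no such value. The cause of the other changes was not tested. Leaving out each array gave 19 to 35 calls for smoke in wild type hosts (6 to 20 higher, 13 to 15 lower; 20 without wild type smoke replicate 1), 0 to 5 in deficient-labelled hosts (0 to 2 higher, 0 to 3 lower; 0 without deficient-labelled air replicate 2), 20 to 27 for genotype in air (16 to 22 higher, 3 to 6 lower), 30 to 50 for genotype in smoke (19 to 20 higher, 11 without deficient-labelled smoke replicate 2 to 30 lower without wild type smoke replicate 1) and 13 to 28 interactions (10 to 13 positive, 3 to 15 negative; 15 without wild type smoke replicate 1 and 3 without wild type smoke replicate 2). With the replicate block, 25, 4, 25, 44 and 17 genes passed in the same order of comparisons. Deviations of same-numbered arrays correlated at -0.36 to 0.37, so the numbers were not taken to pair the arrays. Values near log2 6 and below are limited by signal over background.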
